A study of Mus musculus with 69 samples.

Results

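The genes described are 40 genes of mitosis, a fixed list of symbols chosen with earlier results of these data known. They were sought among the probe sets that carry a single gene symbol, and where a gene had several, the one with the highest mean level stood for it. Of the 40 genes, 35 were measured in this way among 18820 genes in all. Kif20a, Nusap1, Ube2c and Foxm1 lie on probe sets that carry other symbols too, Ccnb1 had no listed probe set here, and these 5 are named without values.

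Dorsal skin of mice was profiled on 69 Affymetrix arrays after TPA, a phorbol ester that drives the epidermis to divide and to thicken. The mice were aged to 8 weeks, were shaved and received TPA in acetone 2 days later. No untreated arrays of a later time were analysed, so at 1008 h TPA and the greater age of the mice cannot be told apart. FVB (inbred FVB/N) gave 27 arrays, 3 at each of 0, 2, 6, 12, 24, 48, 72, 168 and 1008 h. F1 (the cross of FVB/N with Spret/Ei) gave 25 arrays, with 4 at 0 h, 2 at each of 4, 6, 12, 24 and 72 h, 3 at 48 h, 6 at 1008 h and 1 at each of 2 and 168 h. SPR (Spret/Ei, a wild-derived strain) gave 14 arrays, with 2 at each of 0, 4, 12, 24, 48 and 1008 h and 1 at each of 2 and 6 h. The 0 h skin is labelled untreated in every strain, no vehicle arrays were analysed here, and no transgene or deletion is named for any group. The protocol in the labels speaks of a single dose and of sampling up to one week, while the design text mentions repeated exposure, so how often the 1008 h skin was treated is not settled. Nothing in the labels ties arrays to separate mice, so the p-values measure only the spread between these arrays. The remaining 3 arrays have no labelled strain and entered no comparison.

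During mitosis the replicated chromosomes condense, attach through their kinetochores to a spindle of microtubules and are pulled apart before the cell is divided by cytokinesis. Cdk1 bound to cyclins A and B starts the process, the spindle checkpoint holds it until every kinetochore is attached, and the anaphase promoting complex with Cdc20 then releases the sister chromatids and destroys the cyclins. The genes are transcribed late in the cell cycle, from the second gap phase on, and are held down in resting cells, so their summed RNA in a tissue is widely used as an index of dividing cells. In skin the dividing cells are mostly basal keratinocytes and, during hair growth, the hair matrix. In whole skin more dividing cells and more RNA per dividing cell cannot be told apart.

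All values are log2 levels or log2 changes. A gene was called where limma gave a Benjamini-Hochberg adjusted p under 0.05 over the 18820 genes and a log2 change of at least 1 in size, and errors after a change are standard errors of that fit. FVB arrays were all in batch 1 and F1 and SPR arrays in batches 2 and 3, so strain and batch cannot be told apart in levels, and only changes against each strain's own 0 h were compared. Whether the probe sets read RNA of FVB/N and Spret/Ei equally well was not tested. The basal keratin Krt14, the defining marker of the epidermis, had a median level of 12.1 over the 66 arrays, against array medians over all genes of 5.88 to 6.33. Its lowest level, 7.97, was in SPR at 12 h. That array, replicate 1, and F1 72 h replicate 2 stood apart as narrow arrays, with interquartile ranges over genes of 1.39 and 2.39 against 3.40 to 3.89 in the other arrays. Of the FVB controls, replicates 2 and 3 were rich in liver transcripts, with list scores of 2.02 and 2.49 against -0.77 in replicate 1. Treated FVB arrays also had high liver scores: 0.36 to 1.57 at 6 h, -1.90 to 2.895 at 12 h, -0.99 to 1.97 at 24 h and 1.00 to 1.25 at 1008 h. Only the controls were left out together for this reason.

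As a group the mitosis genes followed 1 course in FVB skin: a fall in the first hours, a return by 12 h, a peak at 24 h, a decline to or below the starting level by one week and a second high level at 1008 h. A score for each array, the mean over the 35 genes after centring each gene on its strain's mean, was -0.08, -0.05 and 0.12 in the FVB controls. It was -0.56 to -1.03 at 2 h, -0.66 to -1.10 at 6 h and -0.20 to 0.01 at 12 h. At 24 h the FVB arrays scored 1.22, 1.25 and 1.42, above each other FVB array. They scored 0.01 to 0.64 at 48 h, -0.35 to 0.08 at 72 h, -0.44 to -0.42 at 168 h and 0.37 to 0.96 at 1008 h. F1 arrays scored -0.52 to 0.05 at 0 h, -1.09 to -0.97 at 4 h, 0.86 and 1.09 at 24 h and 0.45 to 0.99 at 48 h, so that the 24 h and 48 h arrays of F1 overlapped while those of FVB did not. SPR arrays scored -0.29 and 0.18 at 0 h, 0.75 and 1.17 at 24 h and 0.38 and 0.85 at 48 h. Each of the 35 genes had its highest FVB change at 24 h, as did 30 of 35 in F1 and 34 of 35 in SPR; the others peaked at 48 h.

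**Figure D1:**
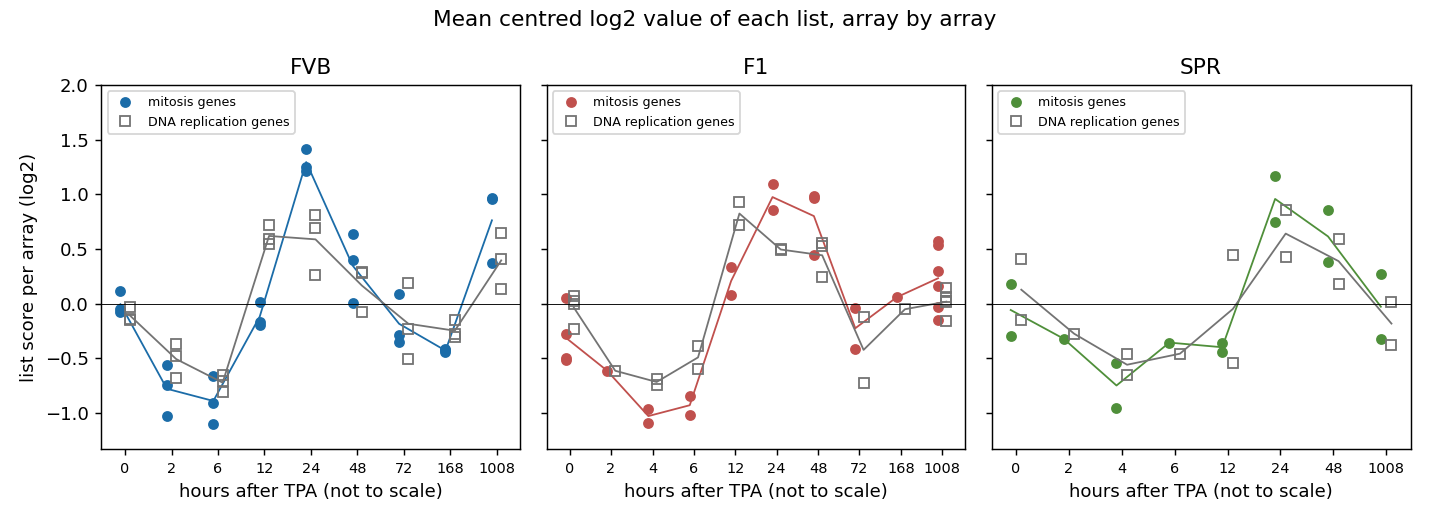
Score of the mitosis genes (filled circles) and of the DNA replication genes (open squares) in every array of FVB, F1 and SPR; the y axis is the mean log2 value of a list after centring each gene on its strain's mean, the x axis gives hours after TPA in order and not to scale, and lines join group means. In FVB the mitosis score was highest at 24 h, between 1.22 and 1.42, while the DNA replication score was already between 0.55 and 0.72 at 12 h.

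Promoters of these genes are known for a pair of elements, the CCAAT box bound by NF-Y and the cell cycle homology region, TTTGAA, through which the DREAM and MuvB complexes hold the genes down in resting cells and switch them on before mitosis. RefSeq promoter sequences (GRCm38.p6, 250 bases before to 50 after the start) matched 31 of the 35 measured genes, with 33 starts. CCAAT or its reverse ATTGG stood in 72.7% of the 33 promoters and in 37.4% of all 32851 promoters of that length. TTTGAA or its reverse TTCAAA stood in 81.8% against 17.9%, and both motifs in 63.6% against 6.95%. Among the 26 DNA replication genes with promoters (32 starts), TTTGAA stood in 18.8% and CCAAT in 53.1%. Among 48 further mitosis genes with promoters (53 starts), TTTGAA stood in 49.1%, CCAAT in 62.3% and both in 35.85%. Of 34 TTTGAA matches in the 33 promoters, 26 began within 40 bases of the start, before or after it. In the 150 bases before the start alone, TTTGAA was in 30.3% of the 33 promoters and 9.07% of all, and CCAAT in 72.7% and 24.5%. The further mitosis genes had TTTGAA in 30.2% and CCAAT in 50.9% there. A match is a run of letters and not a measured site.

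The 120 bases before the start are shown, 5′ to 3′ on the gene's strand with both motifs in capitals, for 5 genes called at 24 h in FVB that hold both there, for Plk1 and Birc5, which differ from them, and for Ttk, which was not called at any time. They are Cdk1 (chr10:69352913-69353032, minus strand), Cdc20 (chr4:118437344-118437463, minus strand), Top2a (chr11:99024190-99024309, minus strand), Kif11 (chr19:37376262-37376381, plus strand), Kif22 (chr7:127042421-127042540, minus strand), Plk1 (chr7:122159315-122159434, plus strand), Birc5 (chr11:117849117-117849236, plus strand) and Ttk (chr9:83834569-83834688, plus strand).
Cdk1: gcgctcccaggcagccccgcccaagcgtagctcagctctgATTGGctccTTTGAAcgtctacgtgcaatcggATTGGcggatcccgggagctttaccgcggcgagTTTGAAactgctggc
Cdc20: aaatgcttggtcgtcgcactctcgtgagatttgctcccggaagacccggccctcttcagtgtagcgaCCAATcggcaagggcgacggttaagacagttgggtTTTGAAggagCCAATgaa
Top2a: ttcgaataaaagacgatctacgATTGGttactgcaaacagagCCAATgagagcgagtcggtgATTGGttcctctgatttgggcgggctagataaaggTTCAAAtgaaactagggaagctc
Kif11: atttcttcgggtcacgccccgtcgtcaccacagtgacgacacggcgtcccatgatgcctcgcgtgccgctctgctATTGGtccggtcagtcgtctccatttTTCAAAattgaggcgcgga
Kif22: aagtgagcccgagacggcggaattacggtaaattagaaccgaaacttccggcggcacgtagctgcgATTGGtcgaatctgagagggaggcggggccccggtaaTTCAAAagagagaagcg
Plk1: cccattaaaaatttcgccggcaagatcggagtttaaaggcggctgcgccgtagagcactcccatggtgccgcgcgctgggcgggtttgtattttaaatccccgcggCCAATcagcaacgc
Birc5: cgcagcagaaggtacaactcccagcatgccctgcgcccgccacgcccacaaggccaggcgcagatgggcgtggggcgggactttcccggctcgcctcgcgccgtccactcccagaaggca
Ttk: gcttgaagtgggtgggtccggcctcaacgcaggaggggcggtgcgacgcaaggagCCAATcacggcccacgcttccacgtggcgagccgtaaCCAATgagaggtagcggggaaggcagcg
In Cdc20 the TTTGAA or TTCAAA nearest the start began 18 bases before the start, in Kif11 19, in Kif22 17, in Cdk1 15 and in Top2a 23, each with a CCAAT or ATTGG upstream of it. Plk1 holds a CCAAT 14 bases before its start, and its TTTGAA begins at base 31 after it, outside the bases shown. Birc5 shows neither motif in these letters. Ttk holds 2 CCAAT boxes, at 65 and 28 bases before the start, and a TTCAAA from base 8 after it, so both motifs were also present at the gene with the smallest change of the 35 at 24 h in FVB.

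The fall in the first hours reached 9 of the 35 genes at 2 h in FVB, against 3.08% of all genes called lower, and 13 at 6 h, against 5.88%. The median log2 change of the 35 was -0.80 at 2 h and -0.84 at 6 h, beside 0.02 and -0.0048 over all genes. Cyclin A2 (Ccna2), which carries Cdk1 and Cdk2 from replication into mitosis, fell furthest at 6 h. Its levels in the FVB controls were 8.71, 8.77 and 8.91, at 2 h 7.83, 7.28 and 7.60 and at 6 h 7.10, 6.50 and 7.04, so that no treated array reached a control. The log2 change was -1.23 ± 0.27 (adjusted p = 0.00135) at 2 h and -1.92 ± 0.27 (adjusted p = 8.2e-07) at 6 h. Aspm, a protein of the spindle poles, stood at 7.62, 7.49 and 7.52 in controls, 6.60, 5.47 and 6.14 at 2 h, 5.91, 5.45 and 5.71 at 6 h and 6.09, 6.26 and 6.40 at 12 h. It was called lower at all of these times, at -1.86 ± 0.29 (adjusted p = 4.57e-06) at 6 h and -1.30 ± 0.29 (adjusted p = 0.000992) at 12 h, where it was the only one of the 35 called lower (4.94% of all genes). The count at 12 h was 2 without FVB 0 h replicate 1, FVB 12 h replicate 2 or FVB 12 h replicate 3.

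The genes called at 2 h and at 6 h were not all the same, but a call at 1 time alone is not a difference between the times. Of the 35 changes, 33 were negative at 2 h and 35 at 6 h. Ccna2, cyclin B2 (Ccnb2), Aspm, the kinetochore protein Cenpf and Nuf2, a subunit of the NDC80 complex that holds microtubules, made up 5 genes lower at both times. Another 4 were called at 2 h alone: the mitotic kinase Plk1, the checkpoint kinase Bub1b, the kinetochore motor Cenpe and the microtubule-shortening kinesin Kif2c. Plk1 stood at 6.51, 6.46 and 6.55 in controls, 5.71, 5.45 and 5.33 at 2 h and 6.21, 5.92 and 6.17 at 6 h, a change of -1.01 ± 0.24 (adjusted p = 0.00205) and then -0.41 ± 0.24 (adjusted p = 0.216). A further 8 were called at 6 h alone: the checkpoint kinase Bub1, the passenger kinase Aurkb, the kinesins Kif11, Kif4 and Kif23, the cleavage furrow scaffold Anln, topoisomerase Top2a and the proliferation marker Mki67. Anln stood at 8.94, 8.76 and 8.65 in controls, 8.91, 7.85 and 8.46 at 2 h and 7.97, 7.56 and 6.44 at 6 h, and its change at 6 h was -1.45 ± 0.33 (adjusted p = 0.000785). By the direct test of 6 h against 2 h, 2 of 35 genes were lower at 6 h (2.17% of all genes): Kif23, at -1.21 ± 0.23 (adjusted p = 0.000618), and Anln, at -1.08 ± 0.33 (adjusted p = 0.0342). The difference for Plk1 was 0.60 ± 0.24 (adjusted p = 0.11).

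Of the 15 liver transcripts measured, 9 were lower at 2 h as well, and their score ranged from -0.77 to 2.49 in the FVB controls and from -1.52 to -0.20 at 2 h. With the controls rich in liver transcripts left out, 2 of the 35 mitosis genes were lower at 2 h and 7 at 6 h, with medians of -0.72 and -0.76. Without FVB 0 h replicate 3 or FVB 2 h replicate 2 the count at 2 h was 4, and without FVB 0 h replicate 1 or FVB 2 h replicate 1 it was 14. Aspm and Cenpf kept their call at 2 h under each setting run, as did Ccna2, Aspm, Ccnb2, Cenpf, Mki67 and Anln at 6 h. Neutrophil markers moved the other way: their score was -1.73 to -1.51 in the FVB controls, -1.36 to 0.33 at 2 h (2 of 7 called higher; 3.6% of all genes) and 0.67 to 1.86 at 6 h (6 of 7; 6.45%). Their part in the early values of any strain was not tested.

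In F1 7 of the 35 genes were lower at 4 h (5.03% of all genes) and 5 at 6 h (4.98%), with medians of -0.74 and -0.61. Ccna2 stood at 7.69, 8.11, 7.71 and 8.31 in the 4 F1 controls, 6.45 and 6.68 at 4 h and 6.94 and 6.73 at 6 h. Its change was -1.39 ± 0.29 (adjusted p = 0.000389) at 4 h. Cenpf (-1.33), Kif2c (-1.26), Aspm (-1.21), the microtubule bundler Prc1 (-1.12), Mki67 (-1.09) and Ccnb2 (-1.09) fell with it. SPR had 6 of 35 lower at 4 h (2.69%), with a median of -0.66: Ccna2 (-1.59 ± 0.34), Cenpf (-1.42 ± 0.33), Kif23 (-1.25 ± 0.29), Aurkb (-1.23 ± 0.29), the NDC80 complex founder Ndc80 (-1.11 ± 0.24) and the ubiquitin ligase adaptor Cdca3 (-1.02 ± 0.32). Ccna2 and Cenpf were thus lower in each strain at its first replicated time. The single arrays at 2 h in F1 and SPR lay below the control mean for 33 and 30 of the 35 genes, with median differences of -0.28 and -0.25. In F1 the median at 4 h was -0.49 within batch 2 and -0.97 within batch 3, with 31 and 35 of 35 genes below the controls. Without F1 4 h replicate 2 the count at 4 h was 2, and without F1 6 h replicate 2 that at 6 h was 0. Without F1 0 h replicate 4 the 6 h count was 3. Without SPR 0 h replicate 2 the SPR count at 4 h was 0, and without SPR 4 h replicate 2 it was 1. Neutrophil markers scored 0.58 and 0.71 in F1 at 4 h against -1.69 to -1.09 at 0 h (4 of 7 called higher; 5.46% of all genes). They scored 0.44 and 0.89 in SPR at 4 h against -1.29 and -1.27 (3 of 7; 2.57%).

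**Figure D2:**
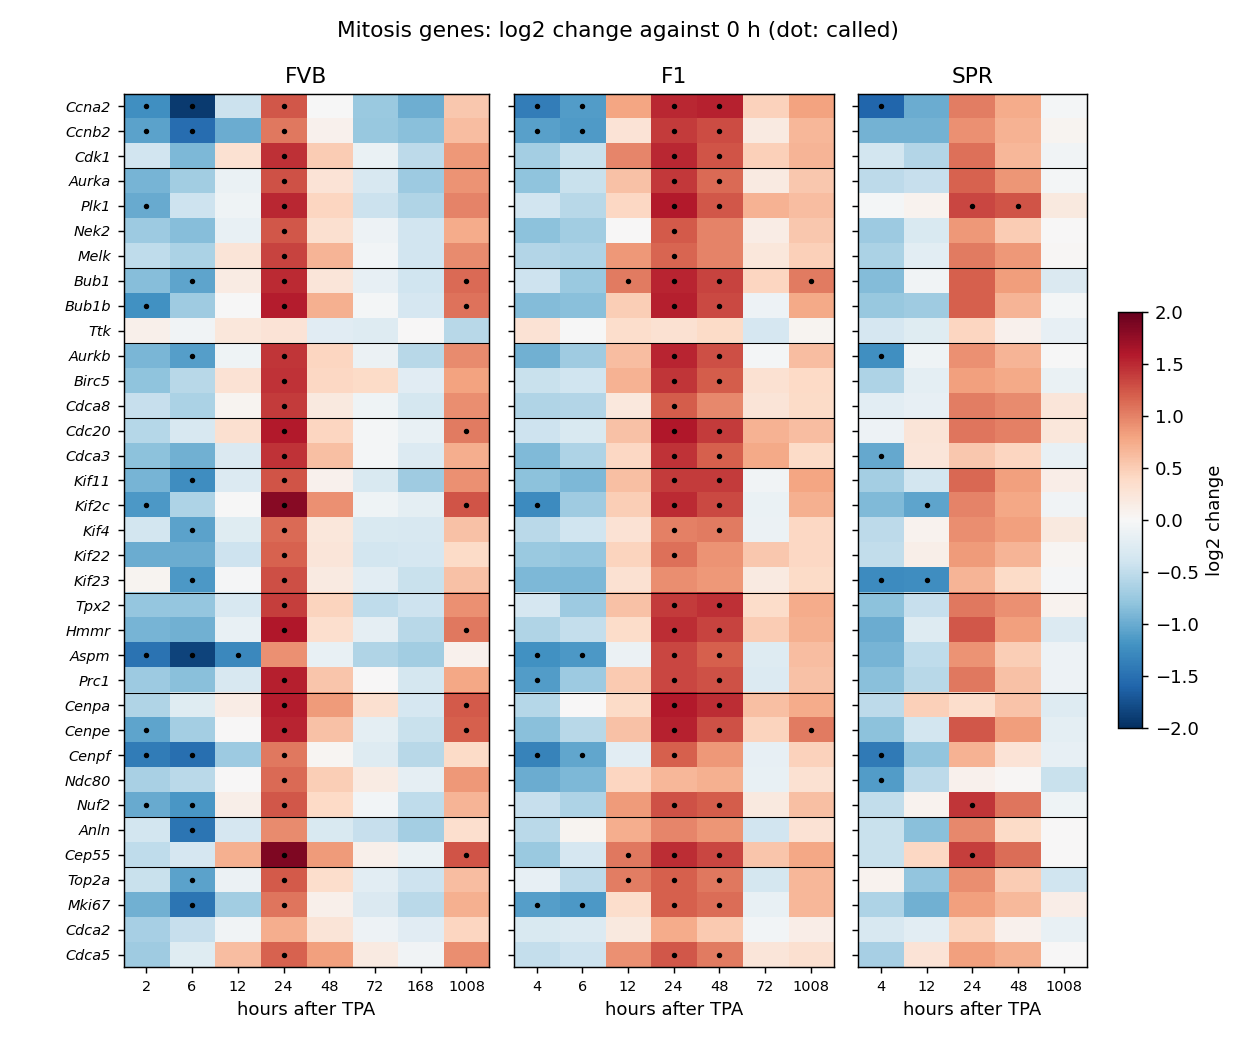
Log2 change against 0 h of the 35 mitosis genes (rows, grouped by role with lines between roles) at each replicated time (columns, hours after TPA) in FVB, F1 and SPR; blue is lower, red is higher, and a black dot marks a called gene. The 24 h column of FVB has 31 dots and that of F1 30, F1 has 25 at 48 h where FVB has 0, and the FVB column at 1008 h has 8.

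By 12 h the median of the genes had returned to about the starting level in FVB (-0.09) and lay above it in F1 (0.49). The FVB changes ranged from -1.30 to 0.72, with 4 genes lower and 2 higher at an unadjusted p under 0.05 by limma. Ccnb2, which was not called, stood at 7.58, 7.74 and 7.71 against 8.33, 8.79 and 8.85 in the FVB controls. Between 6 and 12 h 7 of 35 rose in FVB (0.925% of all genes) and 19 in F1 (0.887%). The F1 count went to 5 without either F1 12 h array and to 0 without F1 6 h replicate 2, and the FVB count was 4 without FVB 12 h replicate 3 or FVB 6 h replicate 2. Against 0 h, F1 had 3 of 35 higher at 12 h (2.48%): Bub1 at 1.04 ± 0.30, the abscission protein Cep55 at 1.05 ± 0.27 and Top2a at 1.02 ± 0.32. Top2a stood at 7.60, 7.99, 7.22 and 7.98 in F1 controls and 8.69 and 8.74 at 12 h. Its call at 12 h was lost with the mean of its probe sets, with another scaling of the arrays (cyclic loess) and with arrays blocked by replicate number. These 3 calls were lost without F1 0 h replicate 3 or without either 12 h array. Genes of DNA replication had moved further by then: 7 of 30 were called higher at 12 h in FVB (5.46% of all genes) and 8 of 30 in F1, with list medians of 0.72 and 0.79. They included the ribonucleotide reductase subunit Rrm2 (1.66 ± 0.33 in FVB and 1.57 ± 0.35 in F1), the replication factor Gins1 (1.47 ± 0.24 and 1.33 ± 0.26) and the origin subunit Orc1 (1.21 ± 0.26 and 1.35 ± 0.27). Of 15 regulators of the entry into replication, cyclin E1 (Ccne1) was called higher at 12 h at 1.36 ± 0.20 in FVB and 1.65 ± 0.22 in F1, and Mybl2, the MYB protein that turns the MuvB complex into an activator, at 1.33 ± 0.24 and 1.40 ± 0.26.

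At 24 h 31 of the 35 mitosis genes were higher than in untreated FVB skin (2.85% of all genes called higher) and 30 of 35 in F1 (1.14%), with medians of 1.29 and 1.39 beside -0.0027 and -0.0028 over all genes. Both strains called 29 genes in common, Kif23 and Ndc80 were called in FVB alone and Aspm in F1 alone. No gene's change at 24 h differed between F1 and FVB in the direct test (0 of 35, 0.0106% of all genes; 0 at an unadjusted p under 0.05; differences of -0.47 to 0.42). Across the 35 genes the changes in FVB and F1 went together (Pearson r = 0.80, Spearman rho = 0.76), a description over genes that share arrays within each strain. The step from 12 to 24 h alone raised 32 of 35 genes in FVB (0.701%) and 2 in F1 (0.122%), with medians of 1.41 and 0.81. The F1 count of that step was 0 without any 1 of the 4 arrays and 5 without the narrow arrays. Within F1 the median at 24 h was 1.72 in batch 2 and 0.99 in batch 3, with 35 and 34 of 35 genes above the controls. Without F1 24 h replicate 2, which leaves 1 array, the F1 count was 3. Liver transcripts scored 1.25 and 3.22 in the F1 arrays at 24 h (3 of 15 called higher, median 2.44) against -0.55 to 0.09 in the F1 controls, and hair matrix markers -0.02 and 1.96 against -0.51 to 1.57 (0 of 12 called by limma, 4 higher at an unadjusted p under 0.05). Neutrophil markers scored 0.12 and 1.07 against -1.69 to -1.09 (3 of 7 called higher, median 0.29). The part of these lists in the F1 result was not tested.

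Of the cyclins and their kinase, Cdk1, the kinase that drives entry into mitosis, moved most. Cdk1 stood at 7.78, 7.84 and 8.11 in FVB controls and 9.29, 9.37 and 9.47 at 24 h, with no overlap, a change of 1.47 ± 0.25 (adjusted p = 0.00012). In F1 it stood at 7.22, 7.50, 7.06 and 7.94 in controls and 8.71 and 9.15 at 24 h (1.50 ± 0.27, adjusted p = 0.000614). Its SPR levels were 7.71 and 8.40 at 0 h and 8.90 and 9.56 at 24 h (1.10 ± 0.32, adjusted p = 0.162). The arrays at 24 h were thus above those at 0 h in all 3 strains, but SPR did not pass the test. Ccna2 changed by 1.24 ± 0.27 in FVB and 1.50 ± 0.29 in F1, and Ccnb2 by 1.06 ± 0.26 and 1.40 ± 0.27.

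All 4 mitotic kinases were higher at 24 h in FVB and in F1. Plk1, which acts from centrosome maturation to cytokinesis, stood at 8.01, 8.07 and 7.97 in FVB at 24 h against 6.51, 6.46 and 6.55 at 0 h, a change of 1.51 ± 0.24 (adjusted p = 2.97e-05). In F1 it stood at 6.31, 5.87, 5.67 and 6.39 at 0 h and 7.66 and 7.62 at 24 h (1.58 ± 0.25, adjusted p = 0.000133). Its SPR levels were 5.95 and 6.58 at 0 h and 7.44 and 7.98 at 24 h (1.33 ± 0.29, adjusted p = 0.0286). Plk1 was the only one of the 35 genes called higher at 24 h and at 48 h in SPR. The centrosome kinase Aurka changed by 1.28 in FVB and 1.41 in F1, the centrosome-splitting kinase Nek2 by 1.24 and 1.23, and the kinase Melk by 1.36 and 1.16.

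The spindle checkpoint genes split. Bub1b, the BubR1 protein that blocks Cdc20, stood at 6.38, 6.52 and 6.59 in FVB controls and 7.94, 8.27 and 8.00 at 24 h (1.57 ± 0.26, adjusted p = 7.03e-05). Its F1 levels were 6.09, 6.23, 5.87 and 6.47 at 0 h and 7.63 and 7.81 at 24 h (1.55 ± 0.28, adjusted p = 0.000598). Bub1, which recruits it to kinetochores, changed by 1.50 ± 0.28 in FVB and 1.52 ± 0.30 in F1. Ttk, the Mps1 kinase at the top of the checkpoint, did not follow: its FVB levels were 7.09, 6.96 and 6.81 at 0 h, 7.31, 7.10 and 6.22 at 6 h and 7.10, 7.46 and 7.12 at 24 h. The 24 h arrays lay just above the controls, the lowest by less than the spread among the controls, and the 6 h arrays lay on both sides of them, with a change at 24 h of 0.27 ± 0.23 (adjusted p = 0.482). In F1 Ttk stood at 6.28, 6.98, 6.42 and 7.08 at 0 h and 6.78 and 7.20 at 24 h, which overlapped (0.30 ± 0.25, adjusted p = 0.695). It was called at no replicated time in any strain, and it is represented by a single probe set.

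The chromosomal passenger complex, which corrects faulty attachments and later guides cytokinesis, was higher in all 3 of its measured members in both strains. Birc5 (survivin) stood at 5.12, 4.96 and 5.19 in FVB controls and 6.62, 6.47 and 6.50 at 24 h (1.44 ± 0.25, adjusted p = 9.28e-05). Its F1 levels were 4.59, 4.85, 4.79 and 5.09 at 0 h and 6.08 and 6.45 at 24 h (1.44 ± 0.26, adjusted p = 0.000705). Aurkb changed by 1.43 and 1.52, and borealin (Cdca8) by 1.40 and 1.22. The FVB changes of the 3 subunits lay between 1.40 and 1.44. Of the genes that work with ubiquitin ligases, Cdc20, the activator of the anaphase promoting complex, stood at 6.89, 6.75 and 6.51 in FVB at 0 h and 8.38, 8.47 and 8.06 at 24 h, a change of 1.58 ± 0.22 (adjusted p = 3.32e-06), which had the smallest adjusted p among the 35. In F1 its levels were 6.22, 6.29, 6.59 and 6.69 at 0 h and 7.94 and 8.16 at 24 h (1.60 ± 0.23, adjusted p = 3.08e-05). Cdca3 changed by 1.44 in FVB and 1.44 in F1.

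All 5 kinesins were higher in FVB at 24 h. Kif2c, which depolymerises misattached microtubules, stood at 6.45, 6.12 and 6.66 at 0 h and 8.14, 8.49 and 8.06 at 24 h (1.82 ± 0.31, adjusted p = 9.78e-05). Its F1 levels were 6.28, 6.18, 5.83 and 6.82 at 0 h and 7.62 and 7.92 at 24 h (1.49 ± 0.33, adjusted p = 0.00587). Kif11, which pushes the spindle poles apart, changed by 1.26 in FVB and 1.39 in F1. The chromokinesins Kif4 and Kif22 changed by 1.14 and 1.18 in FVB and by 1.01 and 1.10 in F1. Kif23, the motor of the central spindle, was called in FVB at 1.29 and stood at 0.93 in F1. Among the spindle proteins, the microtubule-binding receptor Hmmr stood at 5.99, 5.85 and 6.14 at 0 h and 7.61, 7.68 and 7.49 at 24 h in FVB (1.60 ± 0.26, adjusted p = 4.46e-05). Its F1 levels were 5.25, 5.46, 5.20 and 5.96 at 0 h and 6.82 and 7.09 at 24 h (1.48 ± 0.27, adjusted p = 0.000795). Prc1 changed by 1.55 and 1.34, and Tpx2, which activates Aurka on the spindle, by 1.39 and 1.39.

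At the centromere and kinetochore all 5 genes were higher in FVB. Cenpa, the histone variant that marks the centromere, stood at 6.06, 6.15 and 6.51 at 0 h and 7.74, 7.86 and 7.82 at 24 h in FVB (1.57 ± 0.24, adjusted p = 1.74e-05). Its F1 levels were 6.14, 6.11, 5.98 and 6.55 at 0 h and 7.73 and 7.83 at 24 h (1.58 ± 0.25, adjusted p = 0.000133). In SPR its levels were 6.08 and 6.24 at 0 h and 6.23 and 6.95 at 24 h, a change of 0.35 ± 0.30 (adjusted p = 1). Cenpe changed by 1.53 in FVB and 1.54 in F1, Nuf2 by 1.24 and 1.27, and Cenpf by 1.06 and 1.20. Ndc80 was called in FVB at 1.14, whereas its F1 change was 0.67 ± 0.21 (adjusted p = 0.0824). In cytokinesis, Cep55 had the largest change of all 35 genes: 5.45, 5.55 and 5.74 at 0 h and 7.34, 7.59 and 7.40 at 24 h in FVB (1.86 ± 0.26, adjusted p = 4.31e-06). In F1 it stood at 5.50, 5.50, 4.94 and 5.80 at 0 h and 6.78 and 7.04 at 24 h (1.48 ± 0.27, adjusted p = 0.00086). Its SPR levels were 5.36 and 6.03 at 0 h and 6.98 and 7.35 at 24 h (1.38 ± 0.32, adjusted p = 0.0413).

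Of the genes of chromosome structure and cohesion, Top2a, which untangles sister chromatids, stood at 8.00, 8.19 and 8.47 in FVB controls and 9.39, 9.59 and 9.35 at 24 h (1.22 ± 0.30, adjusted p = 0.00526). Top2a has 3 probe sets, and the other pair had differences of -0.26 and 0.28, so that with the mean of its probe sets the change was 0.42 and the call was lost. The second probe sets of Kif11 and Prc1 had differences of 1.32 and 0.64 at 24 h and of -0.34 and 0.17 at 6 h in FVB. The probe sets used had -1.24 and -0.83 at 6 h. In FVB controls the second probe sets of Kif11 and Prc1 lay at 4.39 and 3.48, against 7.88 and 7.05 for those used. The other Top2a probe sets lay at 4.10 and 3.02, against 8.22. All of these other probe sets were thus dim, below the array medians over all genes of 5.88 to 6.33. With the mean of a gene's probe sets, Kif11 lost its calls at 6 h in FVB and at 48 h in F1. Prc1 lost those at 4, 24 and 48 h in F1. Top2a also lost those at 6 h in FVB and at 12, 24 and 48 h in F1. Mki67 changed by 1.07 in FVB and 1.20 in F1, and sororin (Cdca5), which protects cohesion, by 1.19 and 1.25. In FVB 25 of the 31 calls at 24 h were kept under each setting that included the gene. Top2a, Cdca5, Kif4, Mki67, Ccnb2 and Cenpf lost theirs under at least 1.

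Besides Ttk, 3 genes fell short of the call in FVB at 24 h, each through size and not through the adjusted p. Anln stood at 9.86, 9.75 and 9.58 at 24 h, above the controls (8.94, 8.76 and 8.65), with a change of 0.95 ± 0.33 (adjusted p = 0.0461). Aspm went from 7.62, 7.49 and 7.52 to 8.64, 8.58 and 8.19, a change of 0.92 ± 0.29 (adjusted p = 0.0286). Its step from 12 to 24 h, 2.22 ± 0.29 (adjusted p = 4.71e-06), was the largest of the 35. Cdca2, which brings a phosphatase to chromatin at the end of mitosis, stood at 5.85, 5.91 and 6.05 at 0 h and 6.70, 6.91 and 6.40 at 24 h, a change of 0.73 ± 0.20 (adjusted p = 0.0102). The member just inside the threshold was Cenpf at 1.06, and the one just outside was Anln.

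**Figure D3:**
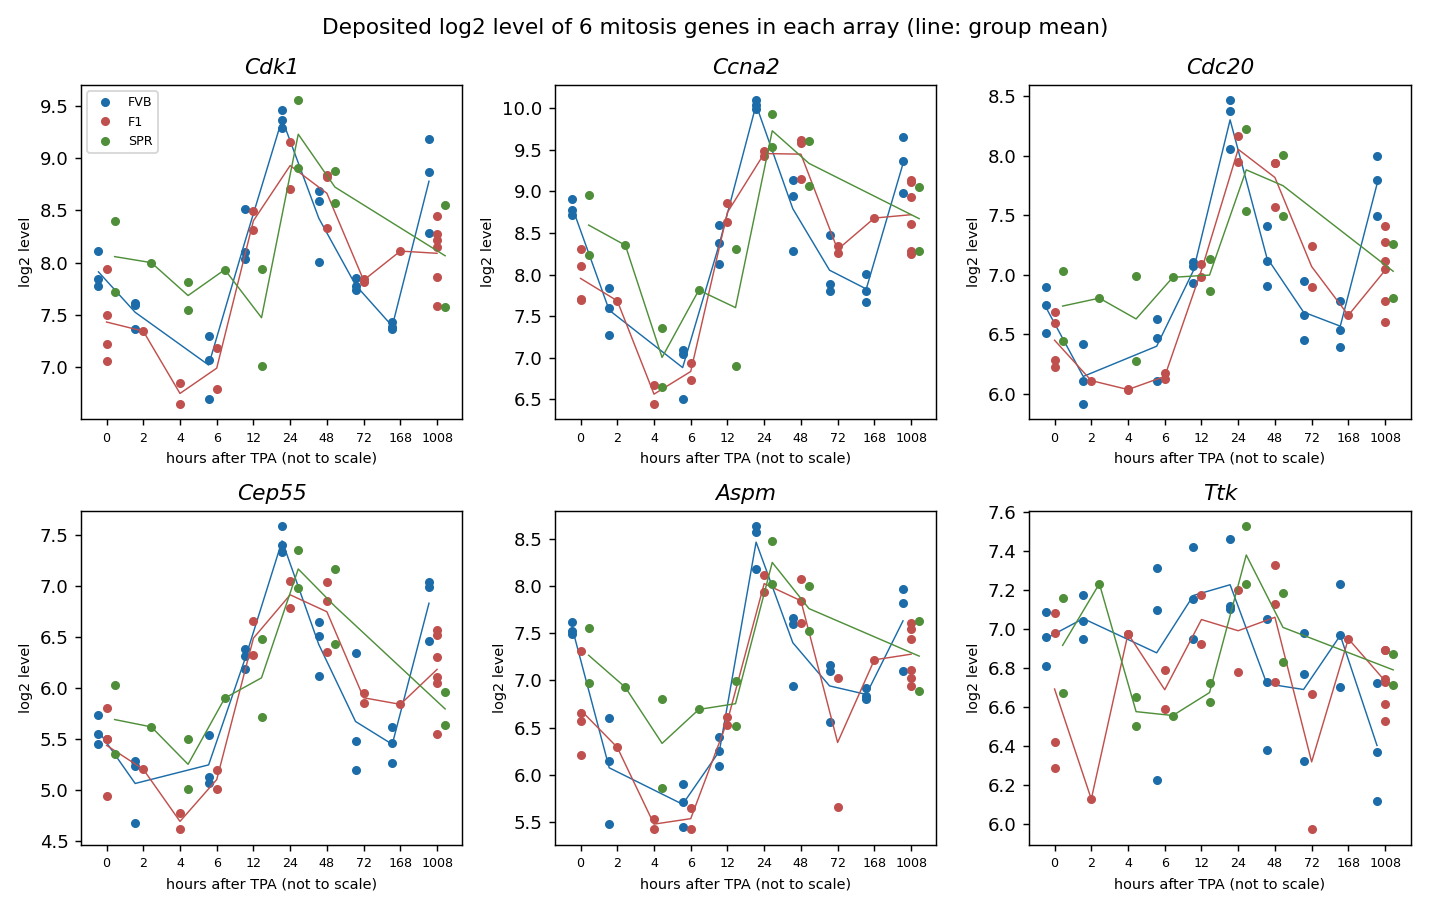
Deposited log2 level of Cdk1, Ccna2, Cdc20, Cep55, Aspm and Ttk in each array of FVB (blue), F1 (red) and SPR (green) against hours after TPA in order and not to scale; points are arrays and lines join group means, and levels are comparable within a strain only. The FVB arrays of Cdk1 at 24 h lie between 9.29 and 9.47, above all other FVB arrays, whereas those of Ttk at 24 h, 7.10 to 7.46, lie just above controls of 6.81 to 7.09.

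At 48 h 0 of 35 genes were higher than at 0 h in FVB (3.1% of all genes; 11 at an unadjusted p under 0.05; median 0.36). In F1 25 of 35 were higher (1.04%; median 1.21), all of them among the 30 called at 24 h. From 24 to 48 h 12 of 35 fell in FVB (0.271%; median -0.96, and 34 lower at an unadjusted p under 0.05). In F1 0 were called lower (0.00531%; median -0.17, 0 at an unadjusted p under 0.05). At 48 h the change was larger in F1 for all 35 genes, with a median difference of 0.76 and a range of 0.22 to 1.54. Of these 23 had an unadjusted p under 0.05, but 0 passed the adjusted test (0.0691% of all genes; lowest adjusted p = 0.0864), or 2 without FVB 48 h replicate 2. For the step from 24 to 48 h, a comparison added after the data were seen, 0 of 35 differed (0% of all genes; 21 at an unadjusted p under 0.05; median difference 0.76). With both narrow arrays left out of the fit, which are in neither 48 h group, 6 genes differed at 48 h: Ccna2 (1.54, adjusted p = 0.00736), Aspm (1.33), Kif11 (1.31), Ccnb2 (1.21), Anln (1.19) and Mki67 (1.02).

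Ccna2, the gene with the largest difference at 48 h, stood in FVB at 9.98, 10.10 and 10.04 at 24 h and 8.94, 9.14 and 8.29 at 48 h, on both sides of its controls (8.71, 8.77 and 8.91). In F1 it stood at 9.42 and 9.48 at 24 h and 9.15, 9.61 and 9.58 at 48 h, above each control (7.69, 8.11, 7.71 and 8.31). Its changes at 48 h were -0.01 ± 0.27 (adjusted p = 0.989) and 1.53 ± 0.26 (adjusted p = 0.000196). Cdk1 stood at 8.59, 8.69 and 8.00 in FVB and 8.34, 8.84 and 8.82 in F1 at 48 h, changes of 0.51 ± 0.25 and 1.26 ± 0.24. Cdc20 stood at 7.12, 7.41 and 6.90 in FVB and 7.57, 7.93 and 7.94 in F1, changes of 0.43 ± 0.22 and 1.39 ± 0.20. In each of these genes the F1 arrays at 48 h overlapped or touched those at 24 h, and the FVB arrays at 48 h lay below each FVB array at 24 h. Kif2c (0.92), Cep55 (0.85) and Cenpa (0.84) were the furthest above their controls in FVB at 48 h. The F1 arrays at 48 h scored 0.45 (batch 2), 0.99 (batch 3) and 0.97 (batch 2), and the F1 median was 1.31 within batch 2 and 1.12 within batch 3. The FVB count of the step from 24 to 48 h was 0 without FVB 24 h replicate 2 or FVB 48 h replicate 3, 1 and 6 without the other FVB 24 h arrays and 26 without FVB 48 h replicate 2; without FVB 48 h replicate 3, 4 genes were higher at 48 h.

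**Figure D4:**
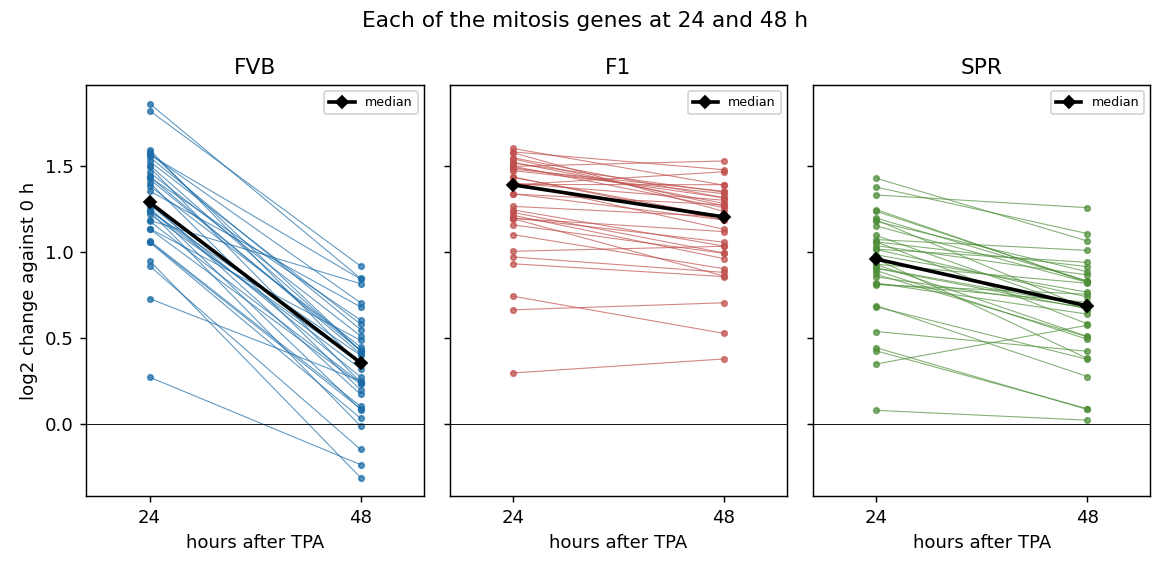
Log2 change against 0 h at 24 h and 48 h of each of the 35 mitosis genes (thin lines) and their median (black diamonds) in FVB, F1 and SPR. The median goes from 1.29 to 0.36 in FVB, from 1.39 to 1.21 in F1 and from 0.96 to 0.69 in SPR.

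After 48 h the FVB levels lay near or below those of the controls. At 72 h 0 of 35 were lower in FVB (0.935% of all genes; 3 at an unadjusted p under 0.05; median -0.16) and 0 higher in F1 (0.202%; 5 at an unadjusted p under 0.05; median 0.19). Without F1 72 h replicate 1, which leaves the narrow array, 2 were higher in F1. One week after TPA, at 168 h, the FVB median was -0.39 and 34 of 35 changes were negative, with 0 called (0.128%; 12 at an unadjusted p under 0.05). Ccna2 was the furthest below at 168 h, with levels of 7.67, 7.81 and 8.00 against 8.71, 8.77 and 8.91 at 0 h (-0.97 ± 0.27, adjusted p = 0.0842). The single F1 array at 168 h lay above its control mean for 33 of 35 genes, with a median difference of 0.38.

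At 1008 h the genes were high again in FVB, where no untreated skin of that age was analysed. Against 0 h 8 of 35 were called higher (4.22% of all genes; median 0.87), and against 168 h 27 of 35 (3.27%; median 1.24). The 8 were Kif2c, Cep55, Cenpa, Cenpe, Bub1, Bub1b, Hmmr and Cdc20. Cenpa stood at 7.62, 7.65 and 7.11 at 1008 h against 6.06, 6.15 and 6.51 at 0 h and 5.85, 5.90 and 5.94 at 168 h (1.22 ± 0.24, adjusted p = 0.000213 against 0 h). Cep55 stood at 7.04, 6.99 and 6.46 at 1008 h against 5.45, 5.55 and 5.74 at 0 h (1.25 ± 0.26, adjusted p = 0.00045), and Cdc20 at 7.99, 7.79 and 7.49 (1.04 ± 0.22, adjusted p = 0.00047). In each of these genes replicate 3 was the lowest of the 1008 h arrays and still above the controls. Without it 20 genes were called, without FVB 1008 h replicate 1 there were 5, and without FVB 0 h replicate 3 there were 13. Ttk lay in the other direction, at 6.37, 6.72 and 6.12 (-0.55 ± 0.23, adjusted p = 0.0987).

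Of 12 hair matrix markers, 10 were higher in FVB at 1008 h, with a list median of 1.78, and their score was 2.48 to 2.80 in the 1008 h arrays against -0.36 to -0.14 at 0 h and -0.37 to -0.29 at 168 h. The list also holds keratins of the hair shaft and genes of the inner root sheath, so it does not mark dividing matrix cells alone. Of the inner root sheath genes, the keratin Krt71 changed by 7.35 ± 1.07 and trichohyalin (Tchh) by 6.81 ± 0.98. Neutrophil markers were higher too (4 of 7, median 1.85), as they were at 24 h (5 of 7, median 1.93), and T lymphocyte markers were lower at 1008 h (7 of 7, median -1.87, with 3.92% of all genes lower). The T lymphocyte score varied among the FVB controls, from 0.09 to 1.69 with a median of 1.19. It was -0.10 to 0.03 at 168 h and -0.79 to -0.65 at 1008 h. The part of any of these lists in the result at 1008 h was not tested. At 24 h in FVB limma called 0 of 12 hair matrix markers (score -0.39 to 0.26; 1 higher and 1 lower at an unadjusted p under 0.05) and 2 of 10 basal keratinocyte markers, both lower (median 0.07; 2.64% of all genes lower).

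In F1 2 of 35 genes were higher at 1008 h (0.515% of all genes; median 0.61), Bub1 at 1.03 ± 0.22 and Cenpe at 1.04 ± 0.22, and all 35 changes were positive. Over the 6 F1 arrays at 1008 h Cdk1 ranged from 7.58 to 8.45, overlapping its controls (7.22, 7.50, 7.06 and 7.94). Of the hair matrix markers limma called 0 of 12 in F1 at 1008 h (2 lower at an unadjusted p under 0.05), with scores of -0.44 to 1.20 against -0.51 to 1.57 in the controls. The F1 count was 0 without F1 0 h replicate 3, F1 1008 h replicate 2 or F1 1008 h replicate 3, and 1 without F1 0 h replicate 1 or F1 1008 h replicate 1. SPR had 0 of 35 called lower at 1008 h (0% of all genes; 0 at an unadjusted p under 0.05; median -0.04). Within batch 2, which holds both SPR controls and 1 of the 2 SPR arrays at 1008 h, the median was 0.32 and 32 of 35 genes lay above the controls; that array scored 0.27 and the one in batch 3, without SPR controls, -0.33. The change at 1008 h did not differ between F1 and FVB for any of the 35 by the adjusted test (1.41% of all genes; 2 at an unadjusted p under 0.05). Between SPR and FVB it differed for 2 of 35 (1.4%): Cenpa, at -1.48 ± 0.38 (adjusted p = 0.0296), and Ndc80, at -1.32 ± 0.32 (adjusted p = 0.0194), with a median over the 35 of -0.84. This count was 0 when both liver-rich FVB controls were left out and 7 without the narrow arrays. It was 0 without FVB 0 h replicate 2, FVB 1008 h replicate 1 or 2, SPR 0 h replicate 2 or SPR 1008 h replicate 2, 1 without FVB 0 h replicate 1 or SPR 0 h replicate 1, and 6 without SPR 1008 h replicate 1. Hair matrix markers scored 1.03 and 1.07 in the SPR arrays at 1008 h against -0.53 and -0.44 at 0 h (0 of 12 called by limma, 6 higher at an unadjusted p under 0.05), and their part in the difference was not tested.

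In SPR all 35 changes at 24 h were positive with a median of 0.96, and 3 were called (0.191% of all genes): Nuf2 at 1.43 ± 0.34 (adjusted p = 0.0451), Cep55 and Plk1. At 48 h Plk1 alone was called (0.165%; median 0.69), at 1.26 ± 0.29 (adjusted p = 0.0435) with levels of 7.27 and 7.77. At 12 h, where 1 of 2 arrays was narrow and 15.3% of all genes were called lower, Kif2c and Kif23 were the 2 genes lower, and 0 were without that array. Without SPR 12 h replicate 2, 8 were lower, and without SPR 0 h replicate 2 there were 0. Between 24 and 48 h 0 of 35 were called lower (0%; 0 at an unadjusted p under 0.05). The changes in SPR and FVB differed for 0 of 35 genes at 24 h (0.0106%; 3 at an unadjusted p under 0.05; median difference -0.33, range -1.22 to 0.19). They differed for 0 at 48 h (0.143%; 1 at an unadjusted p under 0.05; median difference 0.33). The step from 24 to 48 h differed for 0 of 35 (0% of all genes; 10 at an unadjusted p under 0.05). Each of the SPR calls at 24 and 48 h was lost when any 1 of the 4 arrays was left out. Within batch 2, with 1 treated array at 24 h, the median was 0.83 and 34 of 35 genes lay above the controls. Cenpa, with a change of 1.57 ± 0.24 in FVB, stood at 0.35 ± 0.30 in SPR, the farthest apart of the 35 at 24 h. Hair matrix markers scored -0.13 and 0.94 in the SPR arrays at 24 h and 0.87 and 1.16 at 48 h (0 and 1 of 12 called by limma, 4 and 5 higher at an unadjusted p under 0.05), against -0.53 and -0.44 at 0 h. Neutrophil markers scored 0.77 and 1.43 at 24 h against -1.29 and -1.27 at 0 h (2 of 7 called higher). The part of either list in these values was not tested.

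Other genes of the cell cycle gave a wider view. Of all genes, 5.88% were called lower at 6 h in FVB, and at 24 h 2.85% were called higher in FVB and 1.14% in F1. Of 56 further mitosis genes, 17 were lower at 6 h in FVB and 25 higher at 24 h (median 0.93), and 18 were higher at 24 h in F1 (median 0.72). They included the condensin subunit Ncapg (1.71 ± 0.28 in FVB and 1.39 ± 0.29 in F1), the kinesin Kif20b (1.50 ± 0.26 in FVB), Mastl, the kinase that restrains the phosphatase opposing Cdk1 (1.40 ± 0.25 in FVB), and the spindle protein Dlgap5 (1.39 ± 0.23 and 1.35 ± 0.25). Of 30 DNA replication genes, 8 were lower at 6 h in FVB, among them the polymerase Pole (-2.04 ± 0.26) and the helicase subunit Mcm6 (-1.54 ± 0.30). At 24 h 5 of 30 were higher in FVB (median 0.65) and 1 in F1 (median 0.55), which was Dbf4, the activator of the origin kinase, at 1.11 ± 0.25. Of 23 brakes on the cell cycle, 6 were lower at 6 h in FVB and 2 higher (6.45% of all genes higher), including the pocket protein Rbl1 (-1.44 ± 0.24) and the inhibitor Cdkn2c (-1.37 ± 0.20), and limma called 0 at 24 h (4 higher and 3 lower at an unadjusted p under 0.05). Of 4 MuvB activators, Mybl1 was lower at 6 h in FVB (-1.91 ± 0.23) and Mybl2 higher at 24 h in FVB (1.04 ± 0.24) and F1 (1.05 ± 0.26).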

How the data were processed

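Deposited log2 expression values of 35556 probe sets on 69 arrays were used as the authors gave them. RMA is named without a version in the submitters' processing notes, and RMA corrects background, scales arrays to one distribution and summarises probes in log2. The sources used here name no genome build for the array annotation. The platform annotation gave the gene symbols: 21218 carried 1 symbol, 1881 several and 12457 were not in it. Of a gene's probe sets the one with the highest mean was kept (18820 genes).

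One limma model (3.58.1, R 4.3.3, two-sided moderated tests) was fitted with 27 group means and a term for batch 3 against batch 2 (66 arrays, 38 residual degrees of freedom), and groups of 1 array were described only. The fit was checked on simulated data. Calls needed an adjusted p under 0.05 and a log2 change of at least 1. The members, gene lists and arrays singled out were chosen with earlier results of these data known. Array-by-array levels were given for the gene of each role with the largest FVB change at 24 h, for those not called then and for Ccna2, added after its values were seen; from other lists at most 4 called genes per comparison were named, the largest first. The number of arrays limits the precision. Alternatives covered moderation, scaling, dim probe sets, the probe set per gene, the fold threshold, the batch term, pairing and each array left out. Genome coordinates are those of the RefSeq promoter table, and proteins were not used here.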

Additional observations from a re-analysis of the deposited data

Results flagged for a closer look

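In the 4 untreated F1 arrays the level of Nek2, a centrosome kinase, was 6.17 in replicate 4 and at most 5.60 in the others. In the 6 F1 arrays at 1008 h the level of Ndc80, a kinetochore gene, was 5.74 in replicate 6 and at least 6.25 in the others. These were the 2 arrays far from the rest of their group among 72 groups of values checked, where chance alone gives about 1 in 20, so they are no more than chance would give. The check needs at least 4 arrays, so it covered only F1 at 0 h and at 1008 h, and no FVB or SPR group. The values checked share arrays.

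The change at 1008 h differed between SPR and FVB for Cenpa, at -1.48, and for Ndc80, at -1.32, by the interaction test of the limma fit. By the same test at 24 h their differences were -1.22 and -1.06 (adjusted p = 0.679 for each). In SPR they changed by 0.35 and 0.08 at 24 h and by 0.58 and 0.025 at 48 h, beside medians of 0.96 and 0.69 over the 35 genes. How well the probe sets of Cenpa and Ndc80 match Spret/Ei RNA was not tested. Neither call at 1008 h was kept when both liver-rich FVB controls were left out.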

How the results depend on the processing

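The FVB count at 24 h was 29 to 32 with 1 array left out and 22 to 34 over all settings. With no fold threshold, FVB counts were 23 (2 h), 24 (6 h), 4 (12 h), 5 (48 h) and 23 (1008 h), F1 counts were 18, 13, 6 and 9 at 4, 6, 12 and 1008 h, and the SPR count at 12 h was 5. With arrays centred on their median they were 4 (FVB 2 h), 15 (FVB 1008 h), 5 (F1 12 h), 1 (F1 24 h against 12 h), 0 (SPR 24 h) and 0 (SPR 48 h). With cyclic loess they were 13 (FVB 1008 h), 2 (FVB 12 h), 1 (F1 72 h) and 0 (SPR 12 h). Without the liver-rich controls they were 2 (FVB 2 h), 7 (FVB 6 h) and 0 (SPR against FVB at 1008 h). Without the narrow arrays 7 genes were higher in SPR at 24 h, 5 rose in F1 from 12 to 24 h, 0 were lower in SPR at 12 h, 6 differed between F1 and FVB at 48 h and 7 between SPR and FVB at 1008 h.

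Batch 2 alone, with few arrays, gave 0 at each F1 time counted (4, 6, 12, 24, 48 and 1008 h) and in SPR at 12, 24 and 48 h, and 1 in SPR at 4 h. Batch 3 alone gave 16, 14, 15 and 13 in F1 at 4, 6, 24 and 48 h. With no batch term the counts were 1 (F1 1008 h) and 5 (SPR 24 h). SPR fitted alone gave 0 at 4, 12, 24 and 48 h. TTTGAA stood in 30.3% of promoters in the shorter window, which lacks the bases after the start. Beyond fewer arrays, the cause of these moves was not tested.

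With 1 array left out at a time, counts were 4 to 14 (FVB 2 h), 1 to 2 (FVB 12 h), 0 to 4 (FVB 48 h), 5 to 20 (FVB 1008 h), 4 to 10 (FVB 6 to 12 h), 0 to 26 (FVB 24 to 48 h), 2 to 10 (F1 4 h), 0 to 6 (F1 6 h), 0 to 4 (F1 12 h), 0 to 16 (F1 6 to 12 h), 3 to 31 (F1 24 h), 0 to 0 (F1 12 to 24 h), 0 to 2 (F1 72 h), 0 to 2 (F1 1008 h), 0 to 7 (SPR 4 h), 0 to 8 (SPR 12 h), 0 to 0 (SPR 24 h), 0 to 0 (SPR 48 h), 0 to 2 (F1 against FVB at 48 h) and 0 to 6 (SPR against FVB at 1008 h). A group left with 1 array is assumed to vary like the others.

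The labels number replicates without saying that a number marks a shared mouse or day. Deviations of arrays with the same number correlated at -0.61 to 0.39, and in 2 of 8 FVB comparisons best with their own number. The fit with the replicate block moved 0 of 20 counts by over 1.5 times, with 31 genes higher in FVB and 28 in F1 at 24 h.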

Other observations

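The 3 arrays without a labelled strain had mean levels over the 35 mitosis genes of 6.85 (labelled 2 h), 6.13 (labelled 6 h) and 6.34 (time not given). The untreated arrays ranged from 6.79 to 6.99 in FVB, from 6.27 to 6.83 in F1 and from 6.68 to 7.16 in SPR.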
